A study of Mus musculus with 6 samples.

Results

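The transcripts of the β-catenin destruction complex and of 2 of its nuclear partners were followed in mouse intestinal organoids, epithelial cultures grown from the gut lining, that all carried a knockout of Apc. The set holds 10 genes, Apc, Axin1, Amer1, Gsk3a, Gsk3b, Csnk1a1, Btrc, Ctnnb1, Tcf7l2 and Tcf7l1, taken by symbol from the 52249 genes of the count table. All 10 were found once, and 9 passed the filter on low counts. The exception was Tcf7l1. Tcf7l2 and Tcf7l1 are DNA-binding factors and not subunits of the complex, so the set covers the complex, its substrate and that substrate's nuclear end.

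The study set 3 libraries from Apc-knockout organoids (called control) against 3 libraries from organoids with the same knockout and IGF2BP3 overexpression (called OE-labelled). IGF2BP3 is an RNA-binding protein that recognises methylated mRNAs. The labels give no Apc allele, mouse strain, age or sex, no IGF2BP3 construct or promoter, and no statement that replicates came from separate cultures, so p-values measure the spread between libraries, which may be technical. Organoids with intact Apc were not analysed here.

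Without a WNT signal, the scaffolds APC and AXIN hold β-catenin while CK1α and then GSK3 phosphorylate it. The ubiquitin ligase adaptor β-TrCP recognises the phosphorylated protein, which is destroyed by the proteasome. A WNT signal, or loss of APC as in intestinal adenomas, lets β-catenin build up and act with TCF/LEF factors on its target genes. That control works mainly on the protein, whereas the counts below measure mRNA.

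Total counts per library ran from 2180116 to 2519917, and 3 counts, taken as the floor of detection, were worth 1.18 to 1.41 CPM (each count scaled to its library's TMM-adjusted total). Igf2bp3 had at most 1 count in any library, so the mouse transcript gave no check of the overexpression label. The spread among OE-labelled libraries was wider than among controls, with biological coefficients of variation of 17.1% and 3.15%. The library names put the control libraries in one series and the OE-labelled libraries in another, so that library series and group cannot be told apart in any comparison. Of the 10 epithelial markers looked at, 8 had at least 3 counts in every library, Epcam and Cdh1 among them, while Cdx1 and Krt20 had no count in any. The summed level of these markers was 4152 to 4389 CPM in control libraries and 5403 to 6127 CPM in OE-labelled libraries, with Krt8, Krt18, Krt19 and Vil1 higher and Cldn7 lower at an adjusted p below 0.05. None of 10 mesenchymal and 5 endothelial markers reached 3 counts in all libraries, and their sums were at most 3.28 and 0.461 CPM in any library. Of 8 immune markers, Cd14, Csf1r and Cd68 had at least 3 counts in every library, Ptprc had at most 2 in any, and Cd3e, Cd79a and Lyz2 had none. Their summed level was 171 to 177 CPM in control libraries and 145 to 267 CPM in OE-labelled libraries. Csf1r rose (edgeR adjusted p = 0.0061). The part of these marker shifts in the results below was not tested.

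The promoters of 4 of the 5 genes that changed are shown first, because the pathway ends in TCF/LEF factors that bind DNA. RefSeq windows for GRCm38.p6, running from 250 bases before to 50 bases after a transcription start, were found for 5 of the 10 genes, 7 windows in all. They were searched on both strands for the TCF/LEF core CTTTGA, the GC box GGGCGG, the CCAAT box and the E-box CACGTG bound by MYC. Each sequence is written 5′ to 3′ on the gene's own strand, with matches to the TCF/LEF core, or to its reverse complement, in capitals. Where a gene has several windows, the first listed one is printed. The windows are chr9:120933150-120933449 on the plus strand for Ctnnb1, chr7:25237802-25238101 on the minus strand for Gsk3a, chr16:38088751-38089050 on the plus strand for Gsk3b and chr19:55741560-55741859 on the plus strand for Tcf7l2.
Ctnnb1: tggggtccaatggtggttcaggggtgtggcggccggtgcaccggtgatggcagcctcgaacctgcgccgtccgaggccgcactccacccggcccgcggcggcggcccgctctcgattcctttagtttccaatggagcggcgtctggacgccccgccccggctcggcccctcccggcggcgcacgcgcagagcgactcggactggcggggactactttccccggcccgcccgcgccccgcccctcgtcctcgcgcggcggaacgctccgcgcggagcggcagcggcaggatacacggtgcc
Gsk3a: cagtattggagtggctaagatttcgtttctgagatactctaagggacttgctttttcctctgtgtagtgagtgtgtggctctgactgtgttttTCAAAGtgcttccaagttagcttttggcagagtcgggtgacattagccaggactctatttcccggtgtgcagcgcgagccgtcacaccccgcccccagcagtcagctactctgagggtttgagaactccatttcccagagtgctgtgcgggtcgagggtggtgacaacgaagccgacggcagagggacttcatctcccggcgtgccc
Gsk3b: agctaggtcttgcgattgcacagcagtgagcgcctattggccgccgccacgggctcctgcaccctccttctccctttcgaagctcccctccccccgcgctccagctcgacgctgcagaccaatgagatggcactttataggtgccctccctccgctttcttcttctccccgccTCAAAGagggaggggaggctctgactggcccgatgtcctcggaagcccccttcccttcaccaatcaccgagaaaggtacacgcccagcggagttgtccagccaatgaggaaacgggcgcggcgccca
Tcf7l2: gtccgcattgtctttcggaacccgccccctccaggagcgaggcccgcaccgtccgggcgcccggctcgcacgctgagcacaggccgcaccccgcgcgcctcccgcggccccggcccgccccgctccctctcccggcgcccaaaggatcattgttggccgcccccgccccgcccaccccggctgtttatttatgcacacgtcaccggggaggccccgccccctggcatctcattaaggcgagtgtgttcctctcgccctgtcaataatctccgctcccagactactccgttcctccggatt

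Of the 7 windows, 2 held the TCF/LEF core, 1 each from Gsk3a and Gsk3b. The match began at -157 relative to the start in Gsk3a and at -77 in Gsk3b, both as the reverse complement. Over all 32851 windows of this length, 16% held the core. The GC box was found in 5 of the 7 windows (35.7% of all windows) and the CCAAT box in 3 (37.4% of all), with 4 matches in Gsk3b. The Ctnnb1 windows overlap each other, so GC boxes in their shared bases were counted in both. No window of the set held the E-box (7.15% of all). A match describes letters in the window and does not show that a factor binds there.

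**Figure D1:**
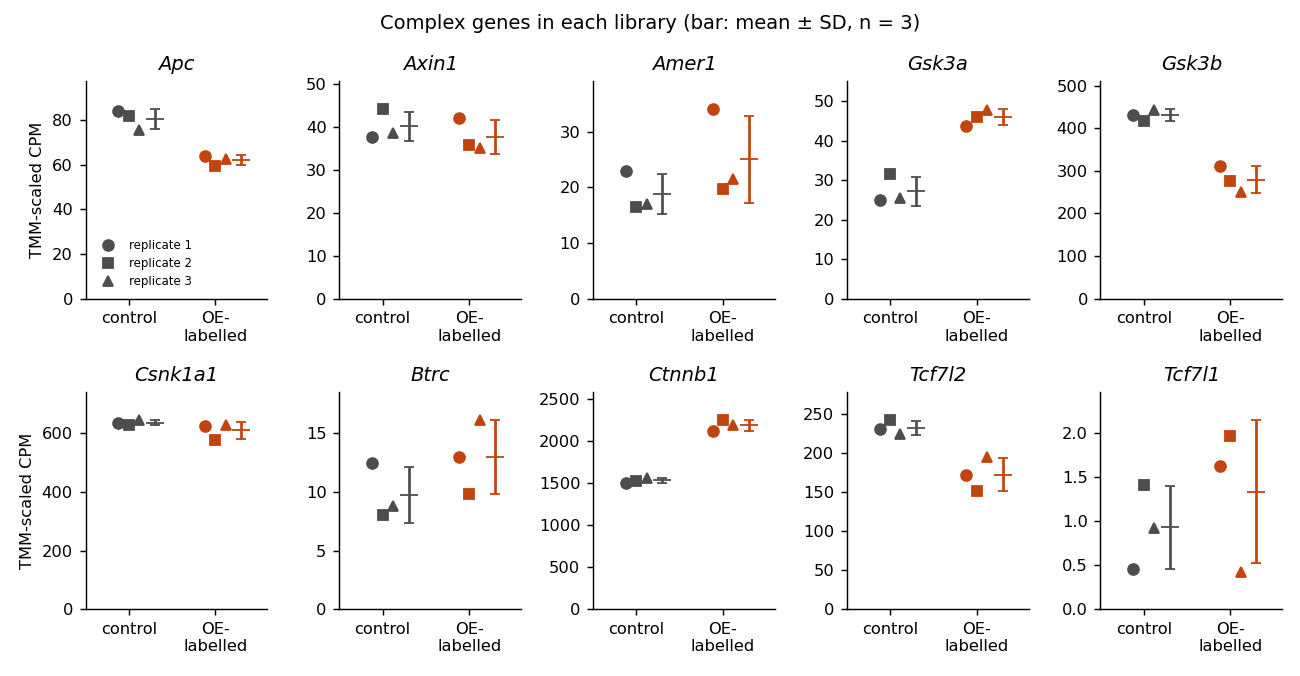
TMM-scaled CPM (vertical axes, from 0) of the 10 genes in each of the 6 libraries, with control in grey, OE-labelled in orange, a marker shape per replicate and bars for mean ± SD (n = 3). Ctnnb1 and Gsk3a lie higher, and Gsk3b, Tcf7l2, Apc and, by a narrow margin, Csnk1a1 lower, in every OE-labelled library than in any control library.

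Of the 9 genes tested, 5 differed between the groups at an edgeR adjusted p below 0.05, against 29.2% of the 10687 genes tested in the whole table. Higher in OE-labelled libraries were 2, Ctnnb1 and Gsk3a (16.5% of all genes tested), and lower were 3, Gsk3b, Tcf7l2 and Apc (12.7% of all). The balance over all genes depended on scaling, with 1765 higher and 1353 lower as reported, 2036 and 1154 with library totals, 1536 and 1541 with DESeq2 size factors, and 1491 and 1623 without mitochondrial and ribosomal RNA genes. For 6 of the 9 the lowest value of one group lay above the highest of the other, the 5 just named and Csnk1a1, against 45.7% of all genes. The median log2 fold change of the 9 was -0.06 and their median absolute change 0.41, against 0.04 and 0.35 over all genes tested. With a per-library offset for GC content, or for exonic length, 3 of the 9 passed, with the higher calls at 2 as before and the lower calls at 1 in place of 3. Over all genes, 2476 passed with the GC offset (1375 higher, 1101 lower) and 2545 with the length offset (1419 higher, 1126 lower), against 3118 without either. Leaving out any 1 control library also left 3, because Apc and Tcf7l2 no longer passed.

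Ctnnb1 encodes β-catenin, the substrate of the complex and the transcriptional co-activator that carries the signal. It is annotated on the plus strand of chromosome 9, 120929216 to 120960507 in GRCm38 (ENSMUSG00000006932). Control libraries held 1504, 1528 and 1554 CPM and OE-labelled libraries 2118, 2241 and 2188 CPM, in replicate order. All OE-labelled values lay above all control values, and the spread within either group was small (coefficients of variation 1.66% and 2.84%). The change was 1.43-fold, a log2 fold change of 0.51 with SE 0.08 (edgeR, adjusted p = 0.001), larger in size than that of 68.5% of the genes tested. It passed in each of 19 alternative analyses, with log2 fold changes from 0.46 to 0.56. Ctnnb1 rested on 3256 counts or more in every library, whereas Ulk4, which overlaps it on the opposite strand, had 6 to 23 counts per library and was lower in the OE-labelled libraries (log2 fold change -1.44).

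The 2 GSK3 kinases, which phosphorylate β-catenin after CK1α has primed it, moved in opposite directions. Gsk3a, on the minus strand of chromosome 7 (25228258 to 25237851 in GRCm38, ENSMUSG00000057177), was counted at 24.9, 31.4 and 25.3 CPM in the controls and at 43.8, 46.0 and 47.8 CPM in the OE-labelled libraries. The groups did not overlap. The rise was 1.68-fold, a log2 fold change of 0.75 with SE 0.16 (edgeR, adjusted p = 0.00372). Gsk3b, on the plus strand of chromosome 16 (38089001 to 38246084, ENSMUSG00000022812), was counted at 430.9, 417.1 and 443.7 CPM in the controls and at 312, 275.7 and 250.3 CPM in the OE-labelled libraries. These groups did not overlap either, and every OE-labelled value was the lower one. The log2 fold change was -0.62 with SE 0.11 (edgeR, adjusted p = 0.00127). Both calls held in each of 19 alternatives, with log2 fold changes from 0.50 to 0.87 for Gsk3a and from -0.77 to -0.45 for Gsk3b. Gsk3a overlaps the antisense gene 9130221H12Rik, which had 12 to 31 counts per library and a log2 fold change of -0.06 (edgeR adjusted p = 0.907). The transcripts also differ in composition, with a GC content of 59.8% for Gsk3a and 46.1% for Gsk3b around a median of 49.7% over all genes tested. With the GC offset, the log2 fold changes were 0.50 for Gsk3a (adjusted p = 0.037) and -0.49 for Gsk3b (adjusted p = 0.0145).

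Because both genes are read in the same library, their balance does not depend on how libraries are scaled. It carries no offset for GC content or length, and both changes were smaller with either offset. With the length offset they were 0.61 for Gsk3a and -0.45 for Gsk3b. Gsk3a supplied 5.46%, 7.01% and 5.4% of the combined counts in the controls and 12.3%, 14.3% and 16% in the OE-labelled libraries, means of 5.96% ± 0.911 and 14.2% ± 1.87 (SD, n = 3). The log2 ratio of Gsk3a to Gsk3b rose from -3.98 ± 0.225 to -2.6 ± 0.223 (SD, n = 3), a difference of 1.38. The exact two-sided permutation test gave p = 0.1, the smallest that 3 against 3 libraries allow, and 0.5 after adjustment over the 5 gene pairs compared. Gsk3b stayed the larger part in every library, so the sum of the 2 kinases followed it, at 457.8 ± 10.4 CPM in the controls and 325.1 ± 29 CPM in the OE-labelled libraries (SD, n = 3, exact permutation p = 0.1).

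**Figure D2:**
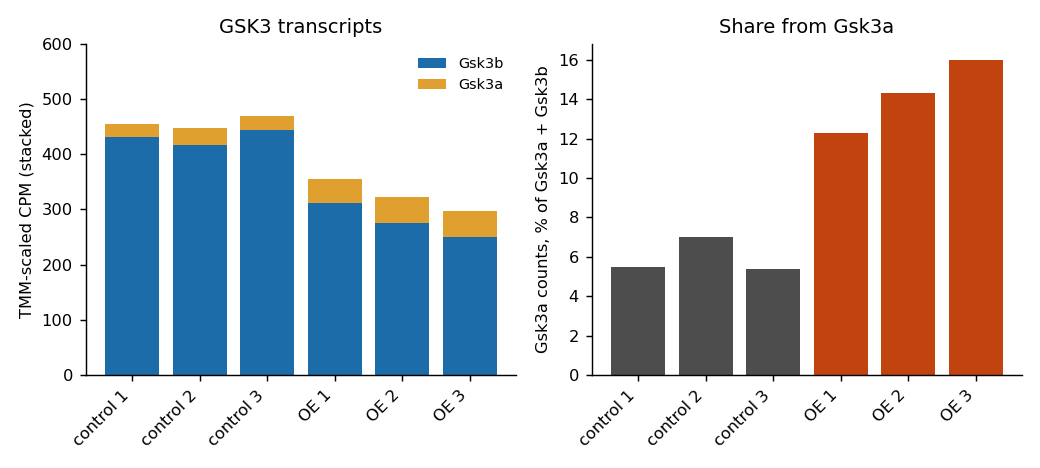
Left, TMM-scaled CPM of Gsk3b and Gsk3a stacked for each of the 6 libraries. Right, Gsk3a counts as a percentage of Gsk3a plus Gsk3b in the same libraries, which lie at 5.4% to 7.01% in the controls and 12.3% to 16% in the OE-labelled libraries.

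Csnk1a1 encodes CK1α, the priming kinase. It was counted at 633.2, 627.2 and 642.7 CPM in the controls and at 623.1, 575.3 and 627 CPM in the OE-labelled libraries. The highest OE-labelled value lay just under the lowest control value, and the log2 fold change was -0.06 with SE 0.09 (edgeR, adjusted p = 0.656). Its sign turned positive with the GC offset (0.14, adjusted p = 0.383) and the length offset (0.13, adjusted p = 0.361), within a range of adjusted p from 0.233 to 0.938 over 19 alternatives. Csnk1a1 is annotated on the plus strand of chromosome 18, 61555274 to 61590061 in GRCm38 (ENSMUSG00000024576).

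Among the scaffolds, Apc (ENSMUSG00000005871, at 34220924 to 34322552 on the plus strand of GRCm38 chromosome 18), the tumour suppressor knocked out in both groups, was still counted in every library. The controls held 83.9, 81.6 and 75.6 CPM and the OE-labelled libraries 64.0, 59.4 and 62.6 CPM. No OE-labelled value reached a control value. A 3′ tag does not show whether a transcript carries the knockout, so these values check neither the knockout nor its extent. The log2 fold change of Apc was -0.37 with SE 0.12 (edgeR, adjusted p = 0.0323), close to the middle of all genes by size (53.5% of genes changed less). The call was lost in 10 of 19 alternatives (adjusted p from 0.00969 to 0.705 over all 19), among them DESeq2's test (0.0753), the GC offset (-0.20, adjusted p = 0.293), each fit without 1 control library (0.0695 to 0.121) and the fit without OE replicate 2 (0.0757). With the length offset it was -0.07 (adjusted p = 0.705), and Apc has 16116 exonic bases against a median of 4520 over all genes tested. Of the 50-base windows at its transcript ends, 1.75% also occur in other genes.

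Axin1 (ENSMUSG00000024182, chromosome 17) encodes the central scaffold, which binds the kinases and β-catenin. It was counted at 37.8, 44.1 and 38.7 CPM in the controls and at 42.1, 35.8 and 35.1 CPM in the OE-labelled libraries (log2 fold change -0.09, SE 0.15, edgeR adjusted p = 0.679). The 2 ranges overlapped. Amer1 (ENSMUSG00000050332, chromosome X) encodes a membrane-bound scaffold that recruits APC and AXIN. It was counted at 23.0, 16.4 and 17.0 CPM in the controls and at 34.0, 19.7 and 21.6 CPM in the OE-labelled libraries, with the first replicate the highest in each group. Its log2 fold change of 0.41 with SE 0.24 (edgeR, adjusted p = 0.222) became 0.07 without OE replicate 1, over alternatives whose adjusted p ran from 0.0729 to 0.832. The transcript of Axin2, a WNT-induced relative of Axin1, was counted at 18.4, 23.9 and 22.6 CPM in the controls and spread from 14.2 to 33.4 CPM among OE-labelled libraries. Accordingly the log2 ratio of Axin1 to Axin2 had an SD of 0.128 in the controls and 0.797 in the OE-labelled libraries. Its means were 0.89 and 0.65 (exact permutation p = 0.6, in a test that cannot go below 0.1). The Axin1, Amer1 and Btrc values rested on 17 to 104 counts per library.

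Btrc (ENSMUSG00000025217, chromosome 19) encodes β-TrCP1, which brings phosphorylated β-catenin to its ubiquitin ligase. Its values were 12.4, 7.98 and 8.75 CPM in the controls and 13.0, 9.83 and 16.1 CPM in the OE-labelled libraries. The ranges overlapped and the log2 fold change of 0.41 with SE 0.27 (edgeR, adjusted p = 0.286) did not pass. Btrc spans a processed pseudogene on the opposite strand, Gm6807, and whether the counting used strand is not given in the sources used here. Gm6807 summed to 64 counts in the controls and 42 in the OE-labelled libraries, against 63 and 95 for Btrc. Its paralogue Fbxw11, which encodes the second β-TrCP, was counted at 39.2 ± 3.24 and 46.8 ± 11.4 CPM in control and OE-labelled organoids (SD, n = 3). The log2 ratio of Btrc to Fbxw11 differed by 0.18 between the groups (exact permutation p = 0.8).

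At the nuclear end, Tcf7l2 encodes TCF4, the main TCF factor of the intestinal crypt. It is annotated on the plus strand of chromosome 19, 55741820 to 55933654 in GRCm38 (ENSMUSG00000024985). The controls held 230, 241.6 and 223.9 CPM and the OE-labelled libraries 171, 151.4 and 194.1 CPM. Each OE-labelled value was below each control value, with replicate 3 the nearest to the controls. The log2 fold change was -0.43 with SE 0.12 (edgeR, adjusted p = 0.0146). The call was lost in 6 of 19 alternatives (adjusted p from 0.00245 to 0.0835), namely the GC offset (-0.35, adjusted p = 0.0518), the length offset (-0.29, adjusted p = 0.0835), the GC offset with a replicate block (-0.35, adjusted p = 0.0509) and each fit without 1 control library (0.0525 to 0.0792). Tcf7l1, which encodes the repressive factor TCF3, had 1, 3 and 2 counts in the controls against 4, 5 and 1 in OE-labelled organoids. These lie around the floor of 3 counts, so no difference was detectable at this depth. Lef1 had at most 2 counts in any library, and Tcf7 was counted at 4.64 and 4.47 CPM on average, so that Tcf7l2 supplied most TCF/LEF counts of both groups.

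A count from the 3′ end does not scale with transcript length, so the 10 genes were ordered by their counts. Other differences between genes in how fully their ends are counted were not tested, so the order is one of counts. In the controls the order by mean CPM was Ctnnb1, Csnk1a1, Gsk3b, Tcf7l2, Apc, Axin1, Gsk3a, Amer1, Btrc and Tcf7l1. The ranges of neighbours in this order did not overlap in the control libraries. In the OE-labelled libraries Gsk3a (43.8 to 47.8 CPM) lay above Axin1 (35.1 to 42.1 CPM), and the other places were the same. In bulk libraries, fewer cells of one kind and less RNA per cell cannot be told apart.

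Jup encodes plakoglobin, a close relative of β-catenin found in cell junctions. It was counted at 126.7, 108.8 and 105 CPM in the controls and at 155.6, 172.2 and 178.8 CPM in the OE-labelled libraries, with no overlap and a log2 fold change of 0.57 with SE 0.12 (edgeR, adjusted p = 0.00354). The call for Jup was lost with the GC offset (0.32), with and without a replicate block (adjusted p over the alternatives from 0.000555 to 0.0826). The log2 ratio of Ctnnb1 to Jup was 3.75 ± 0.166 in the controls and 3.69 ± 0.0772 in the OE-labelled libraries (SD, n = 3). The difference was -0.06 (exact permutation p = 0.7, in a test that cannot go below 0.1). Of 10 junction genes, namely cadherins, catenins and vinculin, 6 were tested (33.3% called, against 29.2% of all genes). Jup was higher and Ctnna1 (α-catenin) lower at -0.32 with SE 0.09 (edgeR, adjusted p = 0.0225). The call for Ctnna1 was lost with the length offset, with the block plus GC offset and without any 1 control library. The other 4 did not pass. The E-cadherin gene Cdh1, which binds β-catenin at the membrane, was among the latter (log2 fold change -0.12, edgeR adjusted p = 0.528). So was the catenin gene Ctnnd1, named after its values were seen (edgeR adjusted p = 0.388). It was counted at 307.9, 329.8 and 285.2 CPM in the controls and at 55.9, 310.7 and 294.3 CPM in the OE-labelled libraries.

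**Figure D3:**
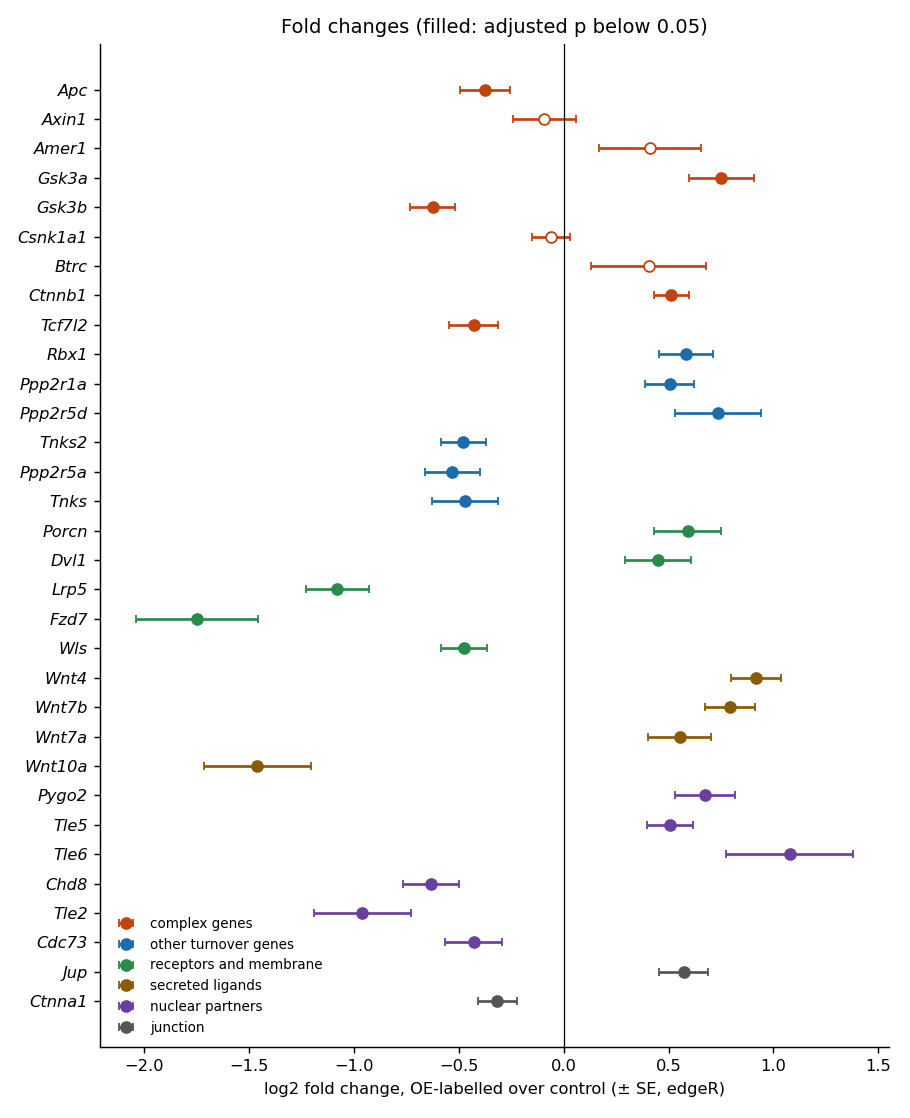
Log2 fold change of OE-labelled over control (horizontal axis, ± SE from edgeR) for the 9 tested genes of the set and for the called pathway genes with the smallest p in 5 of the lists, coloured by role and filled where the adjusted p is below 0.05. Complex genes lie between -0.62 and 0.75. Fzd7, Wnt10a, Lrp5, Tle2 and, by a narrow margin, Chd8 lie further to the left, and Wnt7b, Wnt4 and Tle6 further to the right.

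The rest of the WNT pathway was read from 6 lists covering turnover, membrane, secreted, nuclear, junction and target genes, 134 genes apart from the 10. Of the 88 tested, 17 were higher and 15 lower in the OE-labelled libraries, that is 36.4% against 29.2% of all genes, with a median log2 fold change of -0.04. With the GC offset, 7 were higher and 15 lower, 16 of them among the 32. With the length offset, 14 were higher and 9 lower, 19 of them among the 32, so the direction depended on the offset. Over all genes, both fits had more higher than lower calls (1375 and 1101 with the GC offset, 1419 and 1126 with the length offset). Of the 30 other turnover genes 28 were tested, with 4 higher and 3 lower (25% called, against 29.2% of all genes). Higher were the ligase subunit Rbx1 (from 99.1 ± 12.1 to 148.6 ± 14.6 CPM, SD over 3 libraries, edgeR adjusted p = 0.00488) and the PP2A phosphatase subunits Ppp2r1a (0.51, edgeR adjusted p = 0.00703) and Ppp2r5d (0.73, edgeR adjusted p = 0.0184). The fourth, named after its values were seen, was the kinase Csnk1d (0.44, edgeR adjusted p = 0.0203). Lower were both tankyrases, which mark AXIN for destruction, Tnks2 (-0.48, SE 0.11, edgeR adjusted p = 0.00578) and Tnks (-0.47, SE 0.16, edgeR adjusted p = 0.04), and the PP2A subunit Ppp2r5a (-0.53). The call for Tnks was lost in 9 of 19 alternatives, each fit without 1 control library and the fit without OE replicate 2 among them, and that for Tnks2 with either offset. Tnks was also lost with either offset, with DESeq2's test and with library totals, and Ppp2r5a with the length offset. Ppp2r1a no longer passed with the GC offset (0.30, adjusted p = 0.101, from 0.00341 to 0.105 over its alternatives) or without control replicate 2, nor Ppp2r5d with the GC offset or without control replicate 1, control replicate 3 or OE replicate 2.

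Upstream of the complex, 21 of 26 receptor and membrane genes were tested, 2 higher and 5 lower (33.3% called, against 29.2% of all genes). The WNT co-receptor Lrp5 fell from 87.6, 83.0 and 93.1 CPM in the controls to 34.4, 39.3 and 51.2 CPM in the OE-labelled libraries, a log2 fold change of -1.08 with SE 0.15 (edgeR, adjusted p = 0.000439). Its partner Lrp6, named after its values were seen, had a log2 fold change of -0.73 with SE 0.17 (edgeR, adjusted p = 0.00791), and the WNT receptor Ryk, named likewise, one of -0.63 (edgeR adjusted p = 0.0121). The WNT receptor Fzd7 fell from 13.8, 14.1 and 18.9 CPM to 3.24, 5.90 and 4.65 CPM (log2 fold change -1.75, SE 0.29, edgeR adjusted p = 0.00104). The groups did not overlap for Lrp5, Lrp6, Ryk and Fzd7, nor for Wls, Porcn and Dvl1 below, as in 45.7% of all genes tested. Lrp5 and Fzd7 passed in each of 19 alternatives, which were not examined for Lrp6 and Ryk. Wls, the carrier that takes WNT ligands to the cell surface, fell by 0.47 (edgeR adjusted p = 0.00729), whereas Porcn, the enzyme that adds their lipid, rose by 0.59 (edgeR adjusted p = 0.0156). The calls for Wls and Porcn were lost with either offset, that for Wls also without control replicate 2, and that for Porcn also without any 1 control library or OE replicate 1. Dvl1, which relays the signal from the receptors, was higher by 0.45 (edgeR adjusted p = 0.0471) and lost its call in 16 of 19 alternatives, the fits without any 1 of the 6 libraries among them.

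Of 35 secreted ligands, R-spondins and antagonists, 5 had enough counts to be tested, 3 higher and 1 lower (80% called, against 29.2% of all genes). Wnt4 rose from 59.9, 58.2 and 60.4 CPM to 102.9, 114 and 120.1 CPM (log2 fold change 0.92, SE 0.12, edgeR adjusted p = 0.000292), and Wnt7b from 188.9 ± 16.9 to 327.4 ± 38.6 CPM (SD over 3 libraries, edgeR adjusted p = 0.000592). Wnt7a was also higher (0.55, edgeR adjusted p = 0.016), while Wnt10a was lower (-1.46, SE 0.26, edgeR adjusted p = 0.00147). In all 4 the groups did not overlap, as in 45.7% of all genes tested, and the 4 were named for passing the threshold. The call for Wnt7a alone was lost in some alternatives (8 of 19, adjusted p from 0.00977 to 0.166, the fits with DESeq2, with either offset and without any 1 control library or OE replicate 1 among them).

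Among nuclear partners, 20 of 22 were tested, 4 higher and 4 lower (40% called, against 29.2% of all genes). The β-catenin co-activator Pygo2 rose from 53.9, 54.9 and 54.4 CPM to 104.1, 79.8 and 76.5 CPM (log2 fold change 0.67, SE 0.14, edgeR adjusted p = 0.00419). Tle5, a short Groucho-family protein (0.51, edgeR adjusted p = 0.00484), and Tle6 (1.08, edgeR adjusted p = 0.0187) were higher, as was Ctnnbip1 (0.57), an inhibitor of β-catenin binding to TCF factors named after its values were seen. Lower were the remodeller Chd8 (-0.63, edgeR adjusted p = 0.00418), the co-repressor Tle2 (-0.96, edgeR adjusted p = 0.00862), Cdc73 (-0.43, edgeR adjusted p = 0.0331) and, named after its values were seen, Hipk2 (-0.54). With the GC offset, Tle5 was 0.26 (adjusted p = 0.112, from 0.00071 to 0.14 over its alternatives) and Cdc73 -0.17 (0.382, from 0.0168 to 0.605), and both lost their call, while Pygo2 was 0.42 and still passed. With the length offset, Chd8 was -0.32 (0.113, from 2.89e-05 to 0.113) and Cdc73 -0.11 (0.605), again without a call. The call for Tle6 was lost with the GC offset, with DESeq2's test and without control replicate 3 or OE replicate 1, that for Tle2 without control replicate 3, and that for Cdc73 also with library totals and without any 1 control library. Of the 18 intestinal WNT target genes 13 were tested, and 9 did not pass, Axin2 and Lgr5 among them. The called share was 30.8%, against 29.2% of all genes. Sox9, a crypt transcription factor, was higher (0.58, edgeR adjusted p = 0.00277) and passed in each of 19 alternatives. The crypt genes Ephb3 (0.73, edgeR adjusted p = 0.00852) and Ascl2 (1.52, edgeR adjusted p = 0.0292) were higher and Myc lower (-1.11, edgeR adjusted p = 0.0472). The call for Ephb3 was lost with the GC offset and without control replicate 3 or OE replicate 2. That for Ascl2 was lost with equal depth, with either offset and without control replicates 1 or 2 or OE replicates 1 or 2. Its log2 fold change was 1.01 without control replicate 2, which held 1 count of Ascl2. The call for Myc was lost with library totals, with DESeq2's test and without any 1 control library or OE replicate 2. Without OE replicate 1, the lowest library, Myc was -0.72 and still passed (adjusted p = 0.0214, from 3.5e-05 to 0.21 over its alternatives).

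The genes whose level across the 6 libraries most resembled that of Ctnnb1, where the average log2 CPM was 3 or more, were Gatd3a, Sprr2a3 and Wfdc18 (Pearson r of log2 CPM 0.998, 0.998 and 0.997). For Apc they were Smad7, Septin10 and Selenoi (0.998, 0.994 and 0.994). The 6 points share the 2 groups and their library series, so that a gene that separates the groups scores high. Sprr2a3 belongs to a multigene family whose reads may be split.

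**Figure D4:**
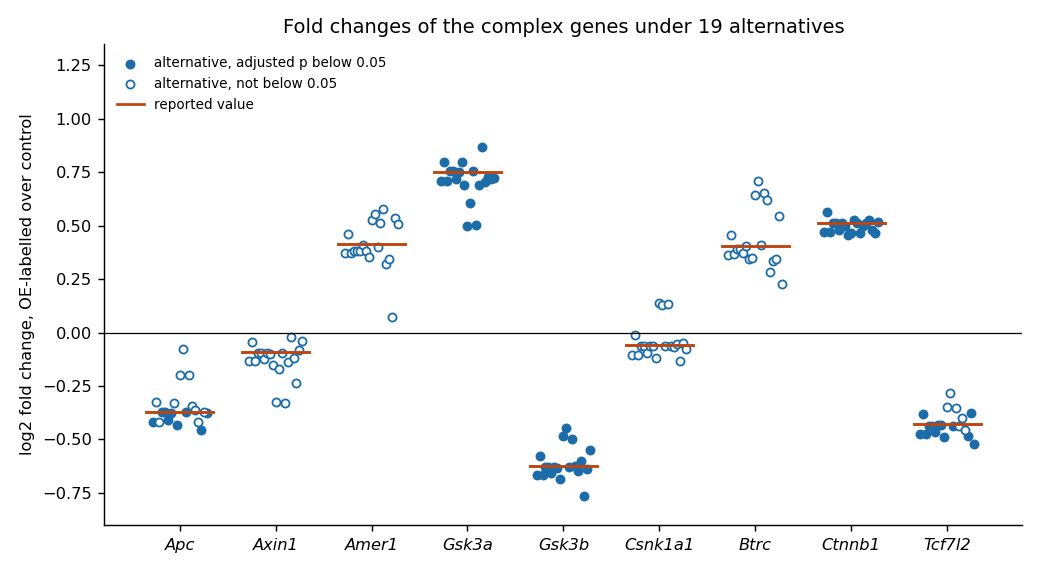
Log2 fold change of OE-labelled over control (vertical axis) for the 9 tested genes, with the reported value as an orange line and each of 19 alternative analyses as a point, filled where the adjusted p is below 0.05. The points of Ctnnb1, Gsk3a and Gsk3b are all filled, those of Apc and Tcf7l2 partly, and those of the other 4 genes are all open.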

How the data were processed

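Per the labels' protocols, total RNA from organoids was made into QuantSeq 3′ forward libraries. The authors deposited estimated counts per gene, unnormalized, for 52249 genes. The submitters' processing notes name STAR, HTSeq, mm10 and GRCm38. Annotation, strand, multi-mapping and molecular identifier settings are not given in the sources used here. Of the values above 0, 3.09% were fractional, none in the 10 genes, and all were rounded although the test was planned for whole counts. Replicates and groups come from sample titles and columns from library names.

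All 6 libraries were fitted with edgeR 4.0.16 (R 4.3.3), quasi-likelihood test, filterByExpr, TMM, no covariates, with Benjamini-Hochberg adjustment over 10687 genes. CPM are TMM-scaled, and SE is the estimate over the square root of F. Gene positions, GC content, length and overlaps come from GENCODE M21 (GRCm38), matched by identifier (51989 genes), promoters from RefSeq. Log2 ratios used a prior count of 0.5. The fits were tested on simulated data. The floor of 3 counts covers counting error only.

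The members and lists were chosen with earlier results of these data known. Named were the 10 genes, ratio partners, up to 3 genes per list and direction with the smallest p past the threshold, the 3 genes most like Ctnnb1 and like Apc (average log2 CPM of at least 3, no Gm or Rik symbols), and Igf2bp3. Alternatives were DESeq2 size factors, library totals, DESeq2 1.42.0, limma-voom (limma 3.58.1), other count filters, equal depth, no mitochondrial or ribosomal RNA genes, GC and length offsets (loess, span 0.5), replicate block, a stricter threshold and leaving out each library. A variance per group in limma-voom was added after seeing the data. In the last 500 bases of coding transcripts, no 50-base window of the 10 genes occurred in another gene's transcripts, except 1.75% of the windows of Apc.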

Additional observations from a re-analysis of the deposited data

How the results depend on the processing

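The 5 calls among the 10 genes became 3 with the GC offset, with the length offset, with the replicate block plus GC offset and at an adjusted p below 0.01. Leaving out single libraries gave 3 to 5, and 3 without any 1 of the control libraries. Of 171 values of the 9 genes, 152 stayed on the same side of both 0 and the threshold, 16 lost their call and 3, each for Csnk1a1, changed sign (0.14, 0.13 and 0.13 with the GC offset, length offset and block plus GC offset). Of 665 values of 35 other named genes, 563 stayed so, 99 lost their call, 1 (Fbxw11 without OE replicate 1) newly passed and 2, of Axin2, changed sign (-0.0121 with the block plus GC offset, and from -0.00484 without OE replicate 3 to 0.462 without OE replicate 1). Csnk1d, Ctnnbip1, Ctnnd1, Hipk2, Lrp6 and Ryk, named after their values were seen, were not among the 35. The alternatives were not examined for them.

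All genes called numbered 3118, 1578 at an adjusted p below 0.01 and 1748 to 3532 when single libraries were left out. Other pathway genes called numbered 32, 18 at the stricter threshold and 18 to 35 without single libraries. All-gene calls fell to between 1748 and 1893 without a control library and rose to 3345 and 3532 without OE replicates 1 and 3. The cause was not tested. The replicate block gave 3112 genes, 5 of the 10 genes and 34 pathway genes. Equally numbered libraries correlated at 0.097, 0.018 and 0.069, under the threshold of 0.1 used for pairing, so the numbers were not taken as pairs. Each OE replicate still correlated most with the control of its own number, although control replicate 2 correlated more with OE replicate 3 (0.042). The Gsk3a to Gsk3b difference ran from 1.28 to 1.51 without single libraries. The ratios of Axin1 to Axin2 (0.0456 without OE replicate 3), Btrc to Fbxw11 (-0.0581 without OE replicate 1) and Ctnnb1 to Jup (0.00528 without control replicate 3) changed sign. With 3 against 3 libraries no ratio could pass an exact test. Among the 10 genes, low counts limit Tcf7l1, Btrc and Amer1 most. Some called pathway genes also rested on few counts. Ascl2 had 10, 1 and 12 in the controls, and Tle6 8 to 35 per library. Fzd7 had 8, 15 and 11 in the OE-labelled libraries, and Myc 8 in OE replicate 1.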
